A study of Mus musculus with 9 samples.

Results

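Cell cycle and proliferation genes were followed through the RNA-seq libraries of sorted mouse liver macrophages. The members were 40 genes of S phase and mitosis, chosen by symbol with earlier results of these data known, and all 40 were found among the 23413 genes of the raw count table. The labels call the cells Kupffer cells (KCs), the resident macrophages of the liver. Male C57BL/6 mice were 5 weeks old when they were placed on a normal diet (ND, 2 libraries) or a high-fat diet (HFD) for 8 weeks. From week 3 the HFD-fed mice received injections of either vehicle alone (Veh, 3 libraries) or DPI at 2 mg/kg in vehicle every 5 days (DPI, 4 libraries). DPI, diphenyleneiodonium, is the compound the study examined as an agonist of the receptor GPR3. No allele or transgene was involved, and the ND mice differed from both HFD groups in diet and in receiving no injection that the labels name. F4/80+CD11b+ cells were sorted from dissociated livers, a gate that the study narrows to Gr1low and that can hold monocyte-derived macrophages beside KCs. The protocol field of the labels instead describes purified cells given 500 nM DPI or DMSO for 24 h, whereas the series design and the study's methods describe the dosing of mice, which was followed. Titles name a separate mouse for each library.

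A cell that divides first copies its DNA and then separates the copies. Before S phase the MCM2-7 helicase is loaded onto replication origins, and E2F transcription factors released from the retinoblastoma protein switch on cyclin E, ribonucleotide reductase and the replication genes. Later the complex of B-type cyclins with CDK1 starts mitosis, kinases and kinesins build the spindle, and the anaphase-promoting complex (APC/C) destroys the cyclins. Most of these RNAs are scarce in resting cells. Tissue macrophages, KCs among them, are known to maintain themselves in part by local division, whereas most monocytes and neutrophils of the blood no longer divide. In RNA from a sorted population, fewer cycling cells and less of each RNA per cycling cell cannot be told apart.

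Many late cell cycle genes share 2 short promoter elements, the CCAAT box bound by NF-Y and the cell cycle homology region (CHR) bound by the DREAM and MuvB complexes. The 250 bases before the RefSeq start (GRCm38.p6) were searched on both strands for CCAAT, for TTTGAA as the CHR, and for the E2F letters TTTCCCGC, TTTCGCGC, TTTGCCGC and TTTGGCGC. A window was at hand for 31 of the 40 members, and none for Mcm4, Gins2, Ccne2, Foxm1, Ccna2, Aurkb, Kif20a, Tpx2 and Stmn1. CCAAT was present in 25 of the 31 (80.6%), against 37.5% of 27025 genes with a window. TTTGAA was present in 9 (29.0%), against 18.3% of all genes, and the E2F letters in 4 (12.9%), namely Mcm5, Mcm6, Mcm7 and Cdk1, against 2.16%. In windows taken singly, CCAAT stood in 33.8% of 32851, TTTGAA in 16.0% and the E2F letters in 1.86%. These matches describe the letters in the windows and are not evidence of binding. The stretches below belong to members whose levels in the DPI libraries all lay above those in the Veh libraries and are printed to show the letters they have in common. Each is 30 bases, 5′ to 3′ in the direction of the gene, with CCAAT or TTTGAA, or the same letters read from the other strand as ATTGG or TTCAAA, in capitals.
Rrm2, 50 bases before the start, chr12:24708192-24708221, plus strand: ggtcagcggcgtCCAATgggaggcgaggcc
Ccnb1, 99 bases before the start, chr13:100786568-100786597, minus strand: gaacccgcggcgCCAATgggaagagagcga
Ccnb1, 67 bases before the start, chr13:100786536-100786565, minus strand: gccacgaactggCCAATgaggagcgagcgg
Cdc20, 53 bases before the start, chr4:118437379-118437408, minus strand: tcagtgtagcgaCCAATcggcaagggcgac
Cdc20, 18 bases before the start, chr4:118437344-118437373, minus strand: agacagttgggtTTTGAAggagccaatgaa
Ube2c, 57 bases before the start, chr2:164769860-164769889, plus strand: agcgagcctttgATTGGctagcgcagcggg
Ube2c, 29 bases before the start, chr2:164769888-164769917, plus strand: ggagggttgcaaTTCAAAcgcgggcggcgg
Plk1, 14 bases before the start, chr7:122159405-122159434, plus strand: ttttaaatccccgcggCCAATcagcaacgc
Kif11, 45 bases before the start, chr19:37376325-37376354, plus strand: tgccgctctgctATTGGtccggtcagtcgt
Kif11, 19 bases before the start, chr19:37376351-37376380, plus strand: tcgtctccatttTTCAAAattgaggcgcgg
The Cdc20, Ube2c and Kif11 windows held both elements, with the printed CCAAT letters farther from the start than the CHR letters, and Cdc20 had a second CCAAT 8 bases before the start. The window of Ube2c held 6 matches to CCAAT, and that of Nusap1 held neither element. GENCODE M21 places the start of Ccnb1 farther upstream, so that the second Ccnb1 stretch lies within that gene model, as do 3 bases of the first, 9 bases of the second Cdc20 stretch and 20 bases of the second Ube2c stretch.

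The libraries held between 3534325 and 15585775 counts (median 4918629), with the ribosomal RNA precursor Rn45s taking 27.0% to 44.5% of them. Levels are given as CPM, a gene's count scaled to a common library total with TMM factors, and 3 counts, the smallest number taken to differ from none, correspond to between 0.184 and 1.02 CPM. Intervals and floors of this kind cover counting error only. The ND libraries were the least alike of any group, with a rank correlation over genes of 0.810 between them against 0.884 to 0.909 within the other groups. The macrophage genes Emr1, Csf1r, Cd68 and Itgam were present in every library. Of the 9 KC genes listed, Clec1b (1 to 163 counts) was under the floor of 3 counts in ND 1, Veh 2 and Veh 3. Id3 (729 to 5064 counts) and Nr1h3 (27 to 304 counts) were above it in every library. The more specific KC genes were not: Clec4f had 0 and 244 counts in ND, 42, 0 and 0 in Veh, and 219, 6, 4 and 6 in DPI, Timd4 and Vsig4 were at 0 in Veh 2 and Veh 3, and Marco had 1 count in 1 library and 0 in the other 8. The cells are therefore called liver macrophages here.

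The members were expressed at low levels. Counts ranged from 0 to 743 for a gene in a library, and all 40 together had 1003 to 6574 counts per library. Per kilobase of exon (GENCODE M21), Pcna, the sliding clamp of the replication fork, stood first with a mean of 24.4 CPM per kb. E2f1 followed with 8.36, Stmn1, which destabilises microtubules, with 6.35, and Birc5 (survivin) with 5.03 CPM per kb. Foxm1, a transcription factor of G2 genes, stood last with 0.111 CPM per kb. Of the 40 members, 37 passed the filter on low counts, and Bub1 (0 to 24 counts), Ccne2 (0 to 10 counts) and Foxm1 (0 to 21 counts) did not. The filter keeps a gene that reaches the minimum in only some libraries, so members at 0 in a whole group passed through the other groups.

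**Figure D1:**
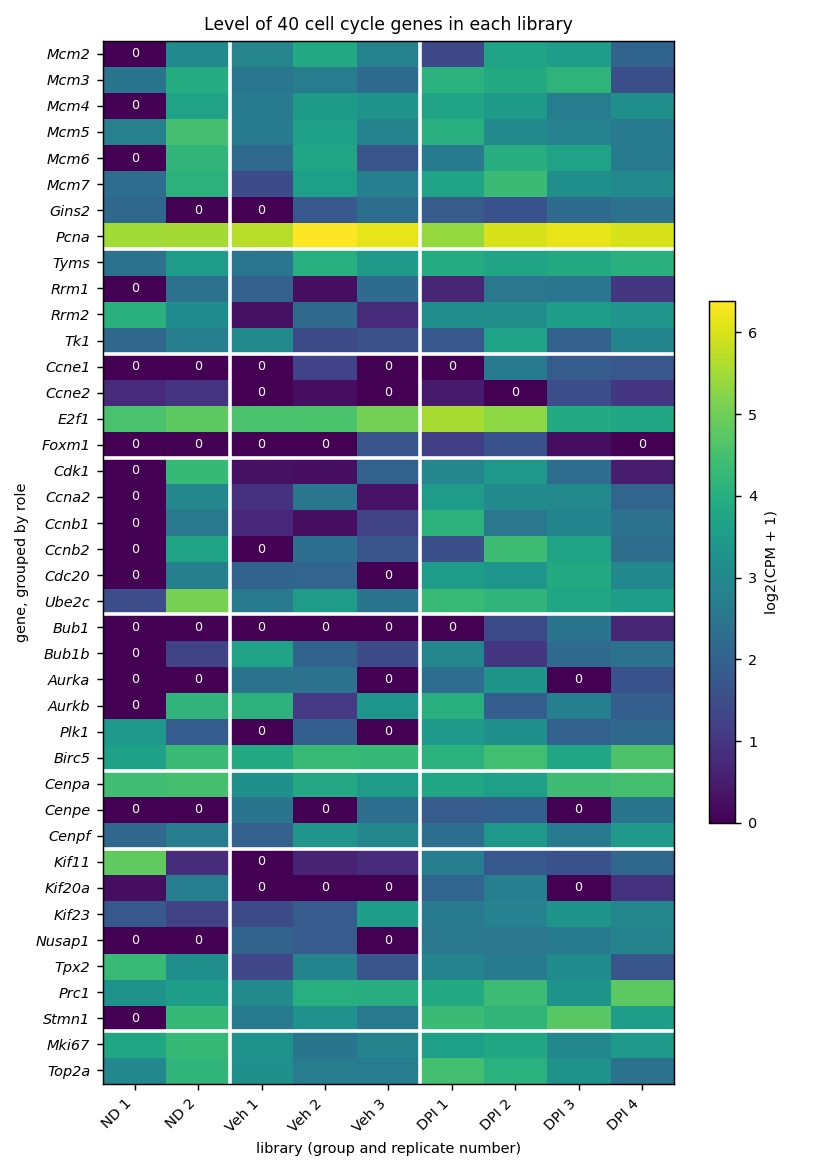
Level of each of the 40 genes (rows, ordered by role, with white lines between roles) in each of the 9 libraries (columns, with white lines between groups), as log2(CPM + 1) by colour; cells marked 0 had no counts. The first ND library had 18 of the 40 genes at 0 counts, the Veh libraries 4 to 9 and the DPI libraries 1 to 3.

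How many members were detected differed between the libraries. In ND 1 and ND 2, 18 and 7 of the 40 had no counts, in the Veh libraries 9, 4 and 8, and in the DPI libraries 2, 1, 3 and 1. After all libraries were thinned to the 3534325 counts of the smallest (DPI 2), the numbers were 18 and 7 in ND, 9, 8 and 8 in Veh, and 2, 1, 4 and 2 in DPI, so each DPI library still had fewer members at 0 than any Veh library. Over all 11393 genes tested, the share at 0 after thinning was 13.0% and 8.37% in ND, 7.06%, 4.49% and 5.53% in Veh, and 3.98%, 4.38%, 5.71% and 4.31% in DPI, ranges that overlapped between Veh and DPI.

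The summed level of the 40 members was 232 and 417 CPM in ND 1 and ND 2. It was 223, 314 and 263 CPM in the Veh libraries and 403, 448, 367 and 319 CPM in the DPI libraries. Each DPI library lay above each Veh library, the closest pair being DPI 4 and Veh 2, while the ND libraries lay on either side of the Veh mean. The DPI mean was 1.44 times the Veh mean, and the Veh mean 0.821 times the ND mean. Pcna alone made up between 40.2 and 82.2 CPM of a library's sum. Without it, the sums were 188 and 373 CPM in ND, 172, 232 and 194 CPM in Veh, and 363, 386, 297 and 256 CPM in DPI, and the ratio of DPI to Veh was 1.63.

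The first comparison asks what DPI changed in the macrophages of HFD-fed mice. Of the 37 members tested, 4 passed the study's threshold of an unadjusted p under 0.05 with a fold change of at least 2, and all 4 were higher with DPI: Rrm2, Ccnb1, Kif11 and Kif20a. Calls are those of edgeR wherever DESeq2 is not named. This is 10.8% of the members, beside 2.84% of all 11393 genes tested, or 1.5% in the higher and 1.34% in the lower direction. The fitted log2 fold change was positive for 32 members and negative for 5, beside 53.1% positive among all genes, and its median was 0.62, beside 0.04 for all genes. In 8 members every DPI library lay above every Veh library (Rrm2, Ccnb1, Kif11, Cdc20, Ube2c, Plk1, Nusap1 and Stmn1) and in none every one below, beside 3.38% and 2.48% of all genes. After Benjamini-Hochberg adjustment in edgeR's quasi-likelihood test, 0 members and 0 genes in all had an adjusted p under 0.05, against 4 members and 4.13% of all genes at an unadjusted p under 0.05. DESeq2 gave 0 members and 2 genes by its own adjusted p. The smallest adjusted p of a member was 0.999. Without Veh 1, Veh 2 or DPI 1, 2 members passed the threshold in place of 4, and the median over members was 0.55 to 0.86 with any 1 library left out.

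**Figure D2:**
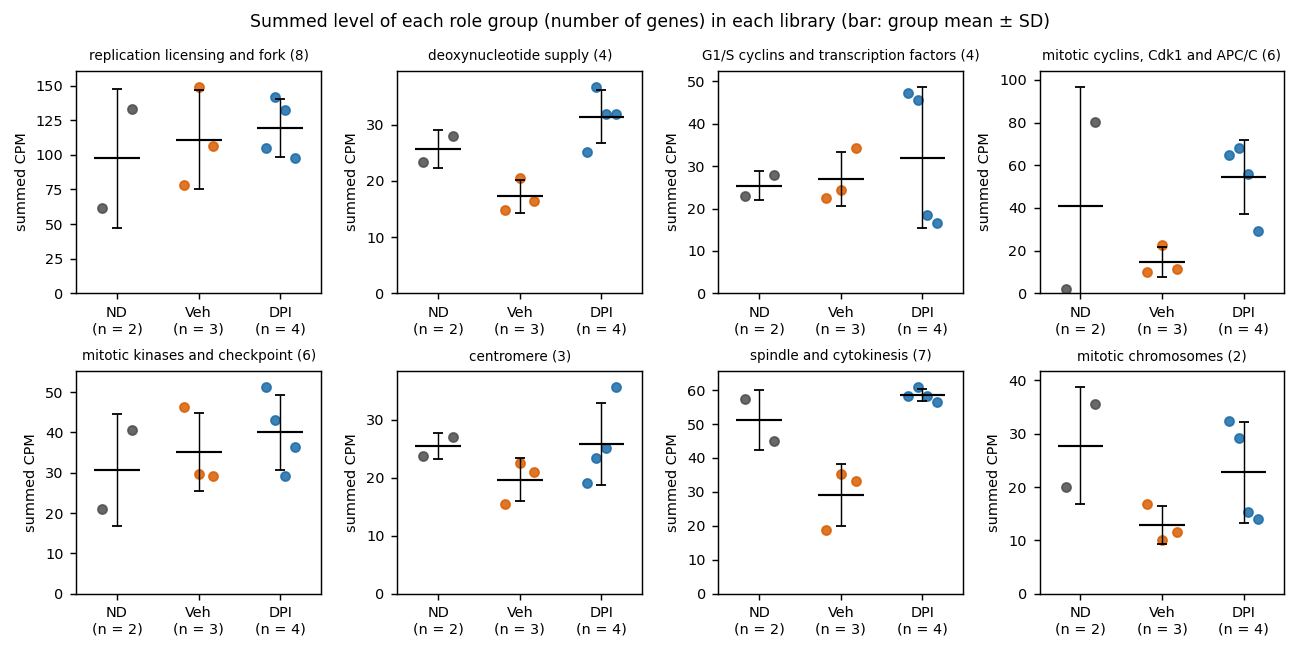
Summed CPM of the genes of each role (panels, with the number of genes in brackets) in each library; points are libraries of ND (n = 2), Veh (n = 3) and DPI (n = 4), and bars show the group mean and SD. The DPI points stand above every Veh point for deoxynucleotide supply, for the mitotic cyclins with Cdk1 and the APC/C, and for spindle and cytokinesis, and overlap the Veh points in the other 5 panels; the ND bar of the mitotic cyclins reaches below 0 and is drawn from 0.

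The genes of mitotic entry and exit had the highest ratio of DPI to Veh means among the 8 roles. The summed level of Cdk1, cyclins A2, B1 and B2, and the APC/C genes Cdc20 and Ube2c was 9.989, 22.9 and 11.4 CPM in Veh and 64.8, 67.9, 55.8 and 29.4 CPM in DPI, and the ratio of the means was 3.70. The gap between the lowest DPI and the highest Veh library was wider for the spindle genes described below. In ND it was 1.82 and 80.3 CPM, a wider spread than within either HFD group. All 6 genes had positive fitted values (median 2.18 on the log2 scale), and 1 of the 6 passed the threshold.

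Ccnb1 (chromosome 13 from 100778650 to 100786570, GRCm38), the B-type cyclin that drives entry into mitosis, had 0.666, 0.181 and 1.49 CPM in Veh and 16.1, 4.76, 6.31 and 4.29 CPM in DPI. Its counts in Veh were 3, 1 and 6, so Veh 1 and Veh 2 were at or under the floor of 3 counts. DPI 1 was the highest, and the other 3 DPI libraries were close together and above all Veh libraries. The difference was 3.34 on the log2 scale (SE 1.33, adjusted p = 0.999, edgeR). It did not pass without Veh 1, Veh 2 or DPI 1, and over all single libraries left out the log2 fold change was between 2.70 and 4.19.

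Ccnb2, the second B-type cyclin, had 0, 3.99 and 2.23 CPM in Veh and 1.96, 20.04, 12.2 and 3.88 CPM in DPI, with a log2 difference of 2.16 (SE 1.41) that did not pass. Ube2c, the ubiquitin-conjugating enzyme of the APC/C, had 5.11, 10.5 and 4.46 CPM in Veh and 18.9, 17.0, 12.6 and 10.7 CPM in DPI. The lowest DPI value was just above the highest Veh value, and the log2 difference of 1.14 (SE 0.75) did not pass. Cdc20, the activator of the APC/C, had 3.11, 3.26 and 0 CPM in Veh and 10.5, 9.17, 13.7 and 6.84 CPM in DPI, with a log2 difference of 2.22 (SE 1.24). Cdk1 and Ccna2 had log2 differences of 2.19 (SE 1.54) and 1.83 (SE 1.28), and their libraries overlapped.

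Deoxynucleotide supply was the second role without overlap. The sum of Tyms, Rrm1, Rrm2 and Tk1 was 14.9, 20.5 and 16.4 CPM in Veh and 25.1, 36.7, 31.9 and 31.9 CPM in DPI, 1.82 times higher in the mean. Rrm2 (chromosome 12 from 24708241 to 24714146), the S-phase subunit of ribonucleotide reductase, had 0.222, 3.63 and 0.743 CPM in Veh and 7.91, 7.81, 10.8 and 9.08 CPM in DPI. Its counts in Veh were 1, 20 and 3, so Veh 1 and Veh 3 were at or under the floor of 3 counts. The 4 DPI libraries were close together, 8.89 ± 1.37 CPM (SD, n = 4), and all above the highest Veh library. The log2 difference was 2.49 (SE 0.86, adjusted p = 0.999, edgeR), and Rrm2 was past the threshold in all 8 alternative fits that tested it and without each of the 7 Veh and DPI libraries in turn.

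Tyms, thymidylate synthase, had 4.66, 14.9 and 9.91 CPM in Veh and 14.2, 12.2, 13.5 and 15.5 CPM in DPI. The Veh libraries spread over the DPI range, and the log2 difference of 0.50 (SE 0.56) did not pass. Rrm1, the large subunit that pairs with Rrm2, and Tk1, thymidine kinase, had log2 differences of 0.27 (SE 1.47) and 0.68 (SE 0.89).

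The 7 spindle and cytokinesis genes summed to 18.6, 35.4 and 33.2 CPM in Veh and 58.2, 60.8, 58.3 and 56.6 CPM in DPI. The DPI libraries differed by less than 5 CPM, the ratio of the means was 2.01, and all 7 fitted values were positive, with 2 of 7 past the threshold. Kif11 (chromosome 19 from 37376403 to 37421859), the kinesin that pushes the spindle poles apart, had 0, 0.544 and 0.743 CPM in Veh and 5.64, 2.38, 2.04 and 3.37 CPM in DPI. Its counts in Veh were 0, 3 and 3, at or under the floor, and every DPI library was above them. The log2 difference was 2.94 (SE 1.28, adjusted p = 0.999, edgeR) and did not pass without any single Veh library, DPI 1 or DPI 4.

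Kif20a, a kinesin of the central spindle, had no counts in the 3 Veh libraries and 53, 17, 0 and 9 counts in the DPI libraries, or 3.25, 5.77, 0 and 0.918 CPM. DPI 3 was at 0 like the Veh libraries. Against the floor of 3 counts per Veh library, the mean of Kif20a was at least 3.82-fold higher with DPI (adjusted p = 0.999, edgeR). The call was lost without Veh 2. Each such bound, here and below, sets a group mean against the mean floor of the other group, so single libraries can lie under it. Nusap1, which bundles spindle microtubules, had 3.11, 2.54 and 0 CPM in Veh and 4.84, 4.76, 5.20 and 6.22 CPM in DPI, with a log2 difference of 1.46 (SE 1.21) that did not pass.

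Stmn1, named above as a microtubule destabiliser, had 5.11, 8.34 and 4.96 CPM in Veh and 19.3, 17.0, 25.8 and 10.8 CPM in DPI. The ranges did not overlap, but the log2 difference of 1.56 (SE 0.97) did not pass. Prc1, which crosslinks the microtubules of the central spindle, had 7.10, 15.1 and 14.6 CPM in Veh and 14.0, 19.7, 8.91 and 26.3 CPM in DPI. Tpx2, the spindle assembly factor that activates Aurora A, had 1.55, 6.35 and 2.23 CPM in Veh and 6.19, 5.09, 7.42 and 2.24 CPM in DPI. The libraries of both genes overlapped, and their log2 differences were 0.49 (SE 0.52) and 0.62 (SE 0.76). Kif23, the motor of centralspindlin, differed by 0.43 (SE 0.82).

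**Figure D3:**
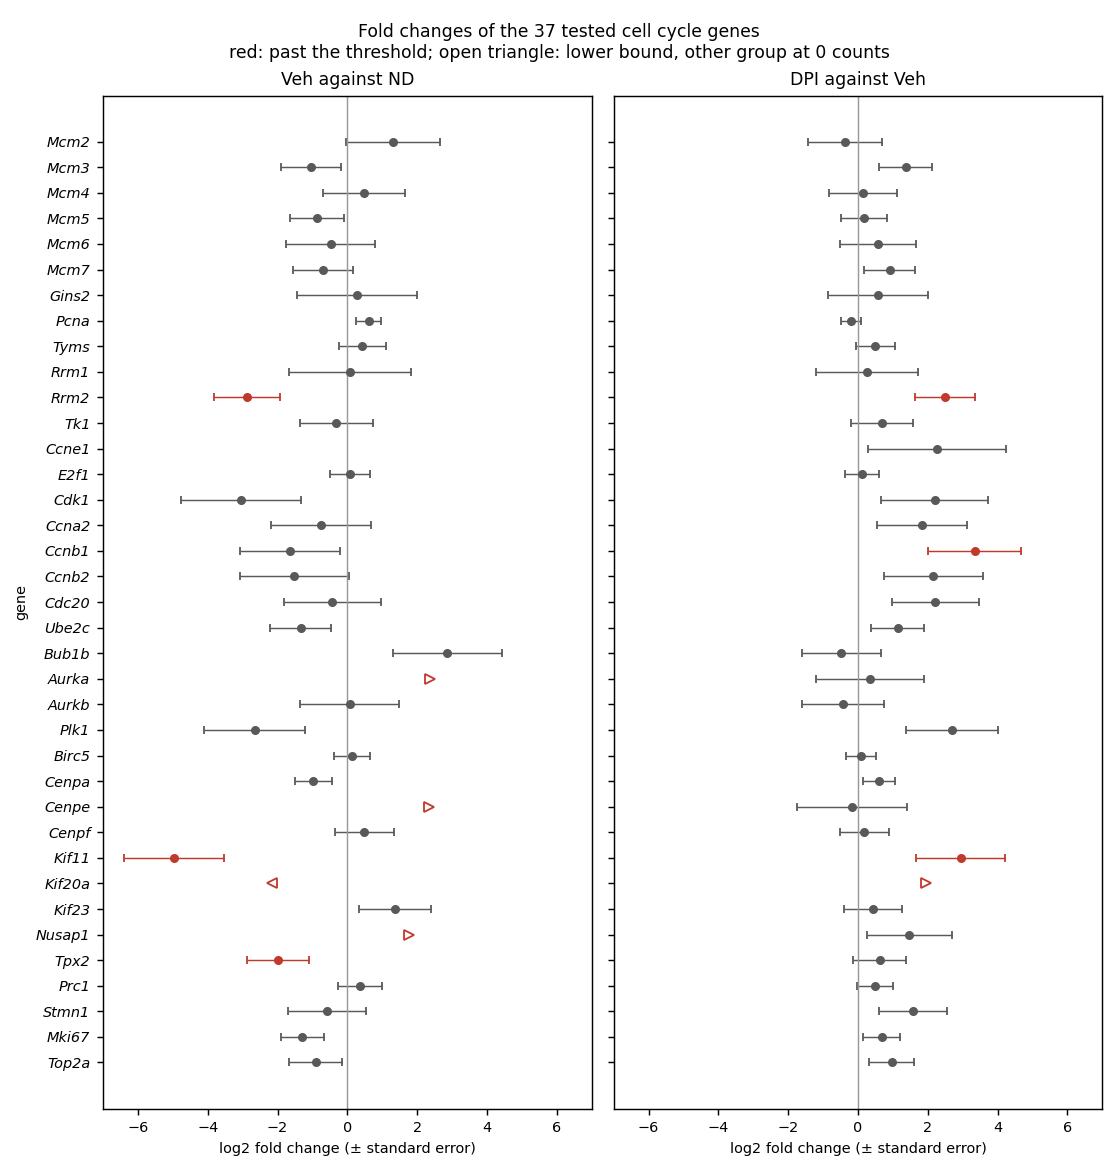
Fitted log2 fold change of each tested member for Veh against ND (left) and DPI against Veh (right), with bars of 1 standard error, red where past the threshold; open triangles are lower bounds where the other group had no counts, and Ccne1 has no value on the left because both groups were at or near the floor. On the right, 32 of the 37 genes were fitted above 0 and the 4 red ones are Rrm2, Ccnb1, Kif11 and Kif20a, while on the left 3 red ones lie above 0 and 4 below; both panels use the same Veh libraries.

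The helicase and fork genes did not show this separation. Mcm2 to Mcm7, Gins2 and Pcna summed to 77.9, 149 and 106 CPM in Veh and 105, 142, 133 and 98.1 CPM in DPI, a ratio of 1.07. Pcna, the most abundant, made up 67.6 of the 111 CPM of the Veh mean and 59.0 of the 119 CPM of the DPI mean. Of the 8 fitted values 6 were positive, with a median of 0.37. Of the 8 genes, 0 passed the threshold in any of the 3 comparisons by edgeR or DESeq2 with all libraries, and 0 had an unadjusted p under 0.05 by either. Without ND 2, Mcm2, Mcm4 and Mcm6 passed an adjusted p of 0.05 in edgeR against ND. Pcna had 51.1, 82.2 and 69.6 CPM in Veh and 40.2, 62.5, 70.3 and 63.0 CPM in DPI, with a log2 difference of -0.20 (SE 0.30). Its SE was the smallest of the 37 members, and the level in DPI was slightly lower in the mean. Mcm7, a subunit of the helicase, had 1.78, 11.1 and 5.70 CPM in Veh and 12.2, 19.4, 7.98 and 7.25 CPM in DPI, a log2 difference of 0.90 (SE 0.74). Among the other helicase subunits the values ran from -0.37 (SE 1.06) for Mcm2 to 1.37 (SE 0.76) for Mcm3.

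The genes that govern S-phase entry also overlapped between the groups. E2f1, the transcription factor that switches on replication genes, had 22.4, 22.7 and 32.0 CPM in Veh and 45.5, 38.4, 13.9 and 13.3 CPM in DPI. DPI 1 and DPI 2 stood above all Veh libraries and DPI 3 and DPI 4 below them, and the log2 difference was 0.11 (SE 0.48). Ccne1, cyclin E1, was detected in Veh 2 only among the Veh libraries (8 counts, 1.45 CPM) and had 0, 5.09, 2.60 and 2.35 CPM in DPI. Ccne2 had 0, 1 and 0 counts in Veh and 6, 0, 10 and 10 in DPI, and Foxm1 had 0, 0 and 9 in Veh and 21, 6, 1 and 0 in DPI. Both were near the floor in most libraries and were not tested.

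Mitotic kinases, checkpoint and centromere genes gave no call between DPI and Veh among the 8 tested, with 0 at an unadjusted p under 0.05 in edgeR and 1, Plk1, in DESeq2. Birc5, the survivin subunit of the chromosomal passenger complex, had 13.8, 18.7 and 18.3 CPM in Veh and 15.8, 20.7, 12.4 and 23.3 CPM in DPI. Aurkb, the kinase of that complex, had 16.4, 1.09 and 9.17 CPM in Veh and 14.9, 2.72, 5.75 and 2.76 CPM in DPI, so that a single group spanned nearly the whole range. Their log2 differences were 0.09 (SE 0.44) and -0.42 (SE 1.17). Plk1, the polo-like kinase of mitosis, had 0, 2.72 and 0 CPM in Veh and 9.99, 8.15, 2.97 and 3.47 CPM in DPI, without overlap, and its log2 difference of 2.68 (SE 1.32) had an adjusted p = 0.999 by edgeR. Bub1, a checkpoint kinase that was not tested, had no counts in any ND or Veh library and 0, 5, 24 and 6 counts in DPI. Bub1b, its relative BubR1, differed by -0.48 (SE 1.12).

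Cenpa, the histone H3 variant of centromeres, had 8.21, 13.4 and 10.4 CPM in Veh and 12.5, 11.2, 20.04 and 21.4 CPM in DPI, a log2 difference of 0.61 (SE 0.46). Cenpf, a kinetochore protein of G2 and mitosis, had 2.89, 9.07 and 6.69 CPM in Veh and 3.98, 9.51, 5.20 and 9.69 CPM in DPI, a difference of 0.18 (SE 0.70). Both overlapped between the groups. Mki67, the proliferation marker Ki-67 that coats mitotic chromosomes, had 8.66, 4.53 and 6.19 CPM in Veh and 11.4, 13.2, 6.86 and 9.80 CPM in DPI. Only DPI 3 lay below the highest Veh library, and the log2 difference of 0.67 (SE 0.54) did not pass. Top2a, topoisomerase II alpha, had 8.21, 5.44 and 5.45 CPM in Veh and 21.0, 16.0, 8.53 and 4.18 CPM in DPI, a difference of 0.96 (SE 0.65). Its first 2 DPI libraries were high and the fourth was the lowest of all 7.

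**Figure D4:**
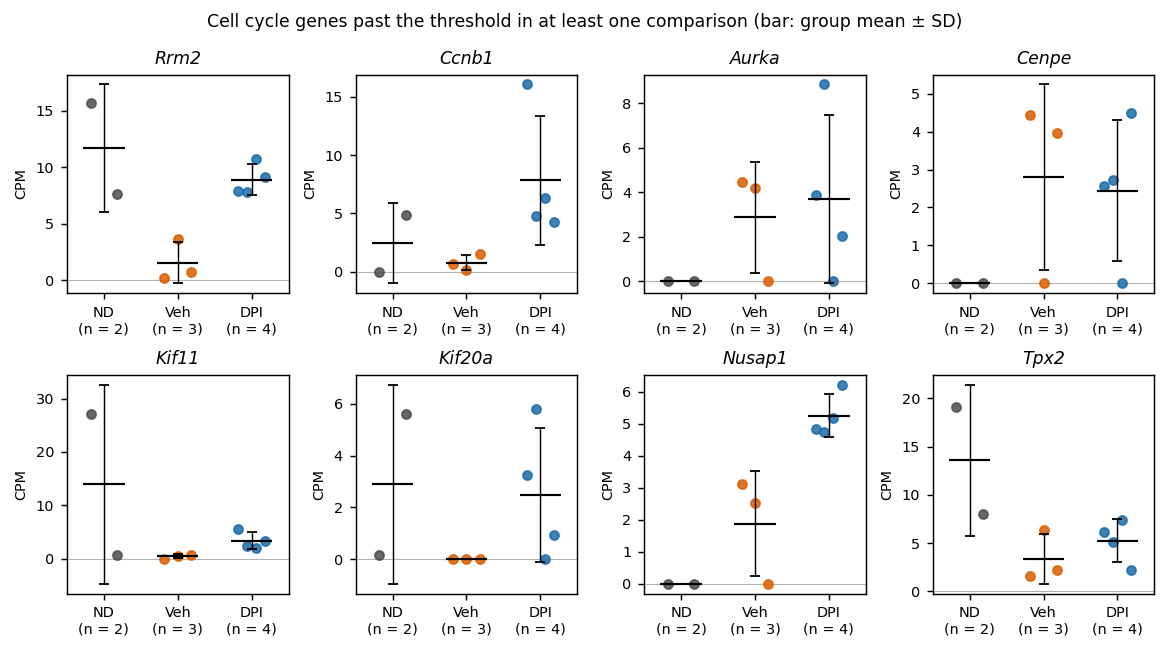
CPM of the 8 members past the threshold in at least 1 comparison, 1 panel each with its own axis; points are libraries, and bars show the group mean and SD for ND (n = 2), Veh (n = 3) and DPI (n = 4). Rrm2 and Kif11 were lowest in Veh, Nusap1 was highest in DPI, and Aurka, Cenpe and Nusap1 had no counts in either ND library.

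The second comparison sets Veh against ND and asks what the HFD changed. It uses the same Veh libraries as the first, so that a low Veh level enters both. Of the 37 members, 7 passed the threshold, 18.9% beside 11.7% of all genes. Of these, 3 were higher on the HFD (Aurka, Cenpe and Nusap1), beside 7.03% of all genes, and 4 were lower (Rrm2, Kif11, Kif20a and Tpx2), beside 4.63%. Fitted values were positive for 17 members and negative for 20, beside 51.5% positive among all genes, with a median of -0.43, beside 0.03 for all genes. By adjusted p in edgeR 0 members passed, of 7 genes in all (0.0614%), and the smallest adjusted p of a member was 0.218. At an unadjusted p under 0.05 there were 7 members, beside 13% of all genes. DESeq2 gave Kif11 as 1 member past its adjusted threshold, of 312 genes in all. Without overlap between the groups, 2 of the 40 were higher in Veh (Pcna and Bub1b), beside 15% of all genes tested, and 7 were lower (Rrm2, Ccne2, Cenpa, Kif11, Kif20a, Tpx2 and Mki67), beside 12.5%.

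The members called lower were Rrm2 of nucleotide supply and Kif11, Kif20a and Tpx2 of the spindle. Of the 4 supply genes 2 were fitted lower, as were 4 of the 7 spindle genes. The 6 mitotic cyclin, Cdk1 and APC/C genes were all fitted lower (median -1.43), with 0 called and ND sums of 1.82 and 80.3 CPM. Rrm2 had 15.7 and 7.66 CPM in ND, both above all Veh libraries, and fell by 2.88 on the log2 scale (SE 0.95, adjusted p = 0.268, edgeR). Kif11 had 27.1 and 0.747 CPM in ND. ND 2 was about level with the highest Veh library, and the fitted value of -4.97 (SE 1.44, adjusted p = 0.218, edgeR) was -0.77 without ND 1, when neither Kif11 nor Rrm2 passed. Tpx2 had 19.1 and 8.03 CPM in ND, both above Veh, and fell by 1.99 (SE 0.88, adjusted p = 0.369, edgeR), a call lost without ND 1, Veh 1 or Veh 3. Kif20a had 1 and 30 counts in ND against none in Veh and was at least 4.44-fold lower on the HFD (adjusted p = 0.319, edgeR), a call lost without ND 2 or Veh 2.

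The members called higher had no counts in either ND library. Aurka, Aurora A, the kinase of centrosomes and spindle poles, had 4.44, 4.17 and 0 CPM in Veh and was at least 5.19-fold higher than in ND (adjusted p = 0.348, edgeR). Cenpe, the kinetochore kinesin, had 4.44, 0 and 3.96 CPM in Veh and was at least 5.06-fold higher (adjusted p = 0.352, edgeR). Nusap1 was at least 3.40-fold higher (adjusted p = 0.288, edgeR). In each of these, 1 of the 3 Veh libraries was itself at 0. The calls of Aurka and Cenpe were lost without either ND library, without Veh 1, and without Veh 2 for Aurka or Veh 3 for Cenpe, whereas that of Nusap1 passed without each single library.

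The direction of the members as a set depended on which ND library was kept. Without ND 1 the median was -0.93, with 11 members fitted above 0 and 26 below. Without ND 2 it was 0.98, with 28 fitted above 0 and 9 below. In that fit without ND 2, Mcm2, Mcm4, Kif11 and Stmn1 had an adjusted p under 0.05 in edgeR, as did 568 genes in all. Without Veh 1, 4 members passed. In the fits without an ND library the remaining ND library is taken to vary like the libraries of the other groups. The 2 ND libraries differed in both directions. Cdk1 had 0 and 99 counts, Ccnb2 0 and 65, Aurkb 0 and 91 and Mcm6 0 and 92 in ND 1 and ND 2, whereas Kif11 had 149 and 4, Tpx2 105 and 43 and Plk1 52 and 14. Mki67 had 13.1 and 18.5 CPM and Cenpa 20.4 and 21.7 CPM in ND, in both cases above all Veh libraries, with log2 differences of -1.29 (SE 0.62) and -0.97 (SE 0.53) that did not pass in edgeR. DESeq2 called Mki67 as lower and Bub1b as higher in Veh than in ND.

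The third comparison sets DPI-treated HFD-fed mice against ND. Of the 37 members, 3 passed, all higher with DPI, 8.11% beside 9.29% of all genes, or 6.24% in the higher and 3.05% in the lower direction. They were Nusap1, at least 9.50-fold higher (adjusted p = 0.267, edgeR), Aurka, at least 6.66-fold (adjusted p = 0.415, edgeR), and Cenpe, at least 4.42-fold (adjusted p = 0.445, edgeR). The call of Aurka was lost without ND 1, ND 2 or DPI 2, and that of Cenpe without ND 1, ND 2 or DPI 4. These are the members that were higher in Veh than in ND, measured against the same ND libraries. Aurka had 3.86, 8.83, 0 and 2.04 CPM in DPI and Cenpe 2.57, 2.72, 0 and 4.49 CPM, so that DPI 3 was at 0 for both. Nusap1 was the only called member with counts in every DPI library.

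The median over members in this comparison was 0.36, beside 0.04 for all genes, with 27 positive and 10 negative, beside 52.1% positive among all genes. It was 0.059 without ND 1 and 2.40 without ND 2, each a fit with 1 ND library left. By adjusted p, 0 members passed in edgeR, of 1 gene in all (0.00878%). At an unadjusted p under 0.05 there were 3 members in edgeR, beside 10.7% of all genes. DESeq2 gave Nusap1 as 1 member past its adjusted threshold, of 219 genes in all. Without ND 2, Mcm4, Mcm6 and Stmn1 had an adjusted p under 0.05 in edgeR, as did 572 genes in all. Without overlap, Tyms, Cdc20, Kif23 and Nusap1 were higher in DPI than in ND, beside 11.7% of all genes, and Tpx2 was lower, beside 8.5%. Rrm2 and Kif11 did not pass here, with log2 differences of -0.39 (SE 0.86) and -2.03 (SE 1.16) between DPI and ND.

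Among other replication and mitosis genes there was 1 call between DPI and Veh, where 2.84% of all genes were called. Of 43 tested replication genes outside the 40 members (origin recognition, polymerases, clamp loader and others), 0 passed between DPI and Veh in edgeR and 0 had an unadjusted p under 0.05, against 2 (Prim2 and Tipin) in DESeq2, with 28 positive and a median of 0.19. Of 38 other mitosis genes, 1 passed, with 26 positive and a median of 0.14, beside 53.1% positive among all genes. This is 2.63% of the list. Each of these medians lies below the 0.62 of the members, a description with no test of the difference. The mitosis gene that passed was Pbk, a mitotic protein kinase, with 0, 1 and 0 counts in Veh and 80, 10, 0 and 38 counts in DPI (adjusted p = 0.999, edgeR), a call lost without Veh 1, Veh 3 or DPI 1 and with the replicate block. DPI 3 was at 0 for Pbk as it was for Kif20a, Aurka and Cenpe.

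Between Veh and ND, 4 of the 43 replication genes passed, 3 higher and 1 lower, and between DPI and ND 6 passed, 5 higher and 1 lower. These are 9.3% and 14% of the list, beside 11.7% and 9.29% of all genes. Fen1, the flap endonuclease of lagging-strand synthesis, had 3.10 and 5.79 CPM in ND, 13.5, 16.0 and 13.4 CPM in Veh and 18.1, 11.9, 13.9 and 17.6 CPM in DPI. Both HFD groups were above ND without overlap, by 1.68 (SE 0.60, adjusted p = 0.290, edgeR) and 1.79 (SE 0.59, adjusted p = 0.347, edgeR) on the log2 scale. Both calls were lost without ND 1, with values of 1.31 and 1.42, and that for Veh also in the fit of 2 groups. Dbf4, the activator of the origin-firing kinase Cdc7, and Pole2, a subunit of polymerase epsilon, had no counts in ND. They were at least 2.16-fold and 4.18-fold higher in Veh (adjusted p = 0.352 and adjusted p = 0.333, edgeR), and both calls were lost without either ND library and with the replicate block, that of Dbf4 also without Veh 1 or Veh 2.

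Among the other mitosis genes, 3 of 38 passed between Veh and ND, 2 higher and 1 lower, and 4 between DPI and ND, all higher, or 7.89% and 10.5% of the list beside the same 11.7% and 9.29%. Racgap1, the partner of Kif23 in centralspindlin, had 3.10 and 8.59 CPM in ND, 16.7, 15.2 and 21.8 CPM in Veh and 18.8, 23.4, 20.6 and 15.7 CPM in DPI. It was higher than in ND by 1.61 (SE 0.59, adjusted p = 0.305, edgeR) in Veh and by 1.74 (SE 0.58, adjusted p = 0.350, edgeR) in DPI. Both calls were lost without ND 1, with values of 1.06 and 1.196, and that for Veh also in the fit of 2 groups. Spc25, a kinetochore subunit of the NDC80 complex, had no counts in ND, 21 counts in Veh 2 alone among the Veh libraries, and 100, 5, 6 and 26 counts in DPI, at least 5.24-fold higher than in ND (adjusted p = 0.427, edgeR), a call lost without ND 1, ND 2 or DPI 1.

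The G1 and E2F genes outside the members gave 0 calls of 22 between DPI and Veh (median -0.07, 0 at an unadjusted p under 0.05 in edgeR and in DESeq2) and 4 between Veh and ND, all higher on the HFD, 18.2% of the list beside 11.7% of all genes. Ccnd2, cyclin D2, the G1 cyclin that couples growth signals to the cycle, had 23.9 and 17.0 CPM in ND and 52.2, 57.7 and 44.1 CPM in Veh, a rise of 1.33 (SE 0.49, adjusted p = 0.311, edgeR). Cdc25a, the phosphatase that activates Cdk2, had 1 and 0 counts in ND and 26, 17 and 4 counts in Veh (adjusted p = 0.286, edgeR). Lin52, a subunit of the DREAM complex, had 1 and 7 counts in ND and 28, 39 and 25 in Veh, and rose by 3.10 (SE 1.25, adjusted p = 0.336, edgeR). The calls of Ccnd2 and Cdc25a were lost without ND 2, and that of Lin52 without ND 1 or Veh 2, in the fit of 2 groups and after thinning. Myc, the growth transcription factor, had 8.56 and 17.7 CPM in ND, 25.8, 60.2 and 26.8 CPM in Veh and 19.6, 13.3, 52.7 and 49.7 CPM in DPI. It was higher in Veh than in ND by 1.52 (SE 0.67, adjusted p = 0.364, edgeR), and its DPI libraries spread over both groups. This call was lost without ND 1 or Veh 2, with library size scaling and with the replicate block. Ccnd1, cyclin D1, had 4.01 and 0.747 CPM in ND, 7.55, 7.44 and 17.8 CPM in Veh and 3.68, 10.2, 29.5 and 3.16 CPM in DPI, and passed in no comparison in edgeR, whereas DESeq2 called it higher than in ND in both HFD groups.

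Cell cycle inhibitors gave 0 calls of 12 between DPI and Veh, with 0 at an unadjusted p under 0.05 in edgeR and in DESeq2. Cdkn1a, the Cdk inhibitor p21, had 139 and 230 CPM in ND, 330, 460 and 389 CPM in Veh and 153, 116, 246 and 552 CPM in DPI. It was above ND in every Veh library, while DPI 4 was the highest of all and DPI 2 the lowest of the 7 HFD libraries, and it passed in no comparison in edgeR, whereas DESeq2 called it for Veh against ND. Gadd45a and Gadd45b, stress-induced growth arrest genes, moved in opposite directions between Veh and ND, the 2 calls among 12 (16.7%, beside 11.7% of all genes). Gadd45a fell by 2.11 (SE 0.69, adjusted p = 0.264, edgeR) from 49.2 and 12.7 CPM, and Gadd45b rose by 1.31 (SE 0.43, adjusted p = 0.268, edgeR) from 35.3 and 71.3 CPM. Both calls were lost without ND 1, when the value of Gadd45a was -0.82.

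Genes that set macrophage growth gave 1 call of 10 between DPI and Veh and 1 between Veh and ND, 10% of the list each time, beside 2.84% and 11.7% of all genes. Csf2rb2, a beta chain of cytokine receptors of the GM-CSF family, had 119, 45.5 and 146 CPM in Veh and 43.4, 45.2, 40.8 and 43.7 CPM in DPI. It fell by 1.26 (SE 0.36, adjusted p = 0.999, edgeR), and Veh 2 was only just above the DPI libraries. The call was lost without Veh 3. Csf2rb, the near-identical common beta chain, whose reads cannot be fully told apart from those of Csf2rb2, was lower by a log2 value of -0.83 (SE 0.31), under the fold required. Csf1r, the receptor for the main growth factor of macrophages, had 575, 570 and 490 CPM in Veh and 475, 549, 452 and 459 CPM in DPI, a difference of -0.17 (SE 0.25). Maf, a transcription factor that restrains macrophage division, was lower in Veh than in ND by 1.52 on the log2 scale (a fitted value of -1.52, SE 0.66, adjusted p = 0.358, edgeR), from 41.5 and 21.3 CPM to 13.5, 15.6 and 3.47 CPM. The call was lost without ND 1 (-0.95), Veh 1 or Veh 3, in the fit of 2 groups and with the replicate block. It had 16.0, 14.6, 6.68 and 10.3 CPM in DPI.

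**Figure D5:**
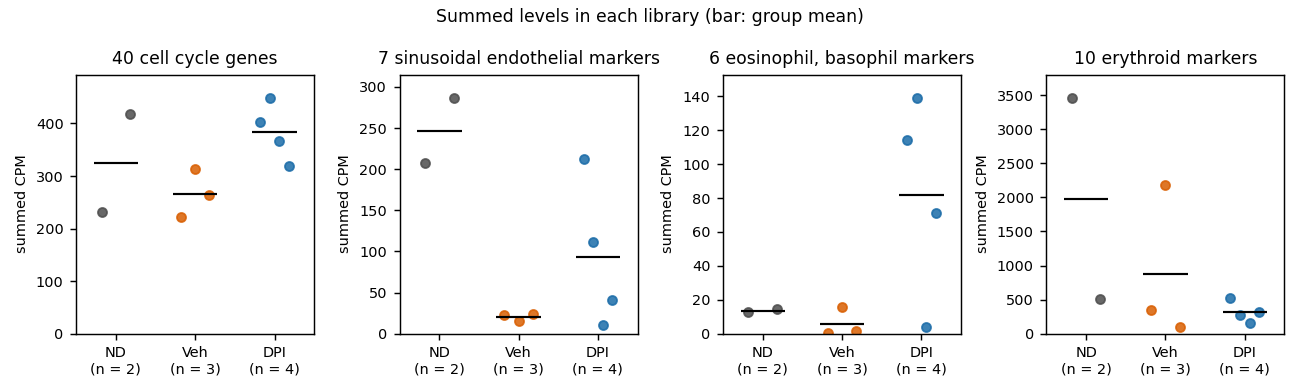
Summed CPM of the 40 cell cycle genes and of the markers of 3 other cell types in each library (points), with the group mean as a bar, for ND (n = 2), Veh (n = 3) and DPI (n = 4). The sinusoidal endothelial sum was 15.4 to 24.3 CPM in Veh and up to 286 CPM in ND, the eosinophil and basophil sum exceeded 70 CPM in 3 of the 4 DPI libraries, and the erythroid sum was highest in ND 1 and Veh 2.

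Markers of other cells were measured in the same libraries. The 10 neutrophil markers in the table summed to 1227 and 3126 CPM in ND, 2528 to 3888 CPM in Veh and 883 to 5558 CPM in DPI, and 3 of the 10, the granule genes Camp, Ltf and Ngp of late neutrophil precursors, rose with DPI. In all, 5 of the 10 were fitted above 0 and 5 below, the latter being S100a8, S100a9, Retnlg, Csf3r and Cxcr2 (down to -0.69 for Retnlg), none of them past the threshold. Elane and Mpo, granule genes of early, still dividing neutrophil precursors, did not pass between DPI and Veh. Elane had 0 and 18.7 CPM in ND, 3.11, 32.8 and 20.1 CPM in Veh and 35.4, 28.2, 62.7 and 7.76 CPM in DPI. Mpo had 0 and 1.12 CPM in ND, 17.1, 22.9 and 7.68 CPM in Veh and 40.8, 7.13, 59.9 and 3.47 CPM in DPI.

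The 6 eosinophil and basophil markers summed to 12.7 and 14.6 CPM in ND, 0.222 to 16.0 CPM in Veh and 114, 139, 3.90 and 70.9 CPM in DPI. Of the 6, 4 rose with DPI, namely Prg2, Epx, Ear1 and Ear6, and Epx, Ear1 and Ear6 were at 0 in DPI 3 as well. The 7 sinusoidal endothelial markers summed to 208 and 286 CPM in ND, 22.9, 15.4 and 24.3 CPM in Veh and 212, 111, 10.8 and 41.0 CPM in DPI. Of the 6 tested, 4 fell and 1 rose between ND and Veh (smallest adjusted p = 0.131, edgeR). With DPI 3 rose, namely Stab2, Clec4g and Dnase1l3 (smallest adjusted p = 0.999, edgeR), and their DPI and Veh ranges overlapped. Over all genes, 11.7% were called between Veh and ND and 2.84% between DPI and Veh, the shares beside which the calls of each marker list stand. No marker of any list had an adjusted p under 0.05 in any comparison (edgeR). DPI 3 had the lowest endothelial sum of the series, an eosinophil sum within the Veh range, and the highest Elane and Mpo.

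The 10 erythroid markers summed to 3456 and 509 CPM in ND, 105 to 2180 CPM in Veh and 150 to 523 CPM in DPI, with Car1 at 0 throughout and no call between DPI and Veh. T and NK cell markers (96.3 and 328 CPM in ND, 305 to 444 in Veh, 277 to 555 in DPI) and B and plasma cell markers (15.7 and 162 CPM in ND, 148 to 367 in Veh, 108 to 486 in DPI) overlapped between Veh and DPI, with no call. Both were lowest in ND 1. Against ND, 3 of 11 tested T and NK cell markers were called higher in Veh (27.3%) and 4 in DPI (36.4%). Of 8 B and plasma cell markers, 1 was called higher in each HFD group (12.5%). Of 5 tested erythroid markers, 0 were called in Veh and 3 were called lower in DPI (60%). The shares of all genes were 11.7% for Veh and 9.29% for DPI. The 8 hepatocyte markers summed to 114 and 203 CPM in ND, 18.7 to 47.9 CPM in Veh and 34.4 to 87.0 CPM in DPI, with 3 of 7 lower in Veh than in ND and 7 of 7 positive but none called with DPI. Monocyte markers (3934 to 7747 CPM over all libraries), dendritic cell markers (55.7 to 411 CPM), general macrophage markers (15506 to 44336 CPM) and the 5 KC markers tested (9 in the table, 225 to 963 CPM) gave 0 calls between DPI and Veh in edgeR, with 1 monocyte and 1 dendritic cell marker at an unadjusted p under 0.05. What these cells contribute to the levels of the cell cycle genes was not tested.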

How the data were processed

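Polyadenylated RNA of sorted liver macrophages was sequenced in 9 libraries, each titled with a separate mouse. The authors aligned reads to mm10 and deposited raw counts per gene, whole numbers without normalization for 23413 genes. The study's methods name bowtie2 and RSEM, and the submitters' processing notes name TopHat2 and edgeR. Strandedness was not given in the sources used here. All 9 columns belong to labelled libraries.

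Counts were tested with edgeR 4.0.16 (R 4.3.3; limma 3.58.1) by filterByExpr, TMM scaling and a quasi-likelihood fit of 3 groups, with Benjamini-Hochberg adjustment over 11393 genes. The biological coefficient of variation was 0.65. The threshold was the study's, an unadjusted p under 0.05 with a fold change of at least 2. SE is that of the log2 fold change, derived from the quasi-likelihood F statistic as the absolute log2 fold change divided by the square root of F. As alternatives, DESeq2 1.42.0 replaced edgeR, scaling used RLE or the library sizes, the filter was dropped or raised to 10 counts in every library, a fit held just the groups compared, replicate numbers entered as a block, and each library was left out. Thinning (seed 1), leaving out Rn45s and sums without Pcna were chosen after seeing the data. Other tools were Python 3.11.15, numpy 2.4.6, pandas 2.3.3 and matplotlib 3.10.9.

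Members, related lists and markers were chosen with earlier results of these data known. Values in every library are given for members with an unadjusted p under 0.05 in any comparison or among the 2 of their role with the highest mean CPM. Of each related list, up to 3 genes with the smallest p under 0.05 are named, and Cdkn1a, Ccnd1, Myc and Csf1r in any case. Cdc20, Plk1, Elane, Mpo, Prim2, Tipin and the untested members were named after their values were seen. Positions and exon lengths are from GENCODE M21 (GRCm38) and promoters from RefSeq (GRCm38.p6). Of the 7 same-numbered pairs of libraries, 0 had correlated deviations above 0.1, so replicate numbers were not taken as pairs. Labels that name separate mice are the only sign that replicates are biological. The study's figure legend for these data gives more mice per group than there are libraries, and the sources do not settle the difference.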

Additional observations from a re-analysis of the deposited data

How the results depend on the processing

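Between DPI and Veh, the median over members stayed positive under every alternative run, 0.55 to 0.86 over the libraries left out, with 29 to 32 of 37 members above 0. Members past the threshold numbered 2 to 4 over libraries left out and 1 of 12 with at least 10 counts in every library, where fewer genes were tested. All genes past it numbered 187 to 521 over libraries left out, 602 without a filter and 202 with at least 10 counts. The related lists gave 1 to 6 over libraries left out, 5 without a filter, 1 with at least 10 counts, 4 by DESeq2 and 5 in fits of 2 groups. Between Veh and ND, members numbered 4 to 14 over libraries left out, 1 with at least 10 counts and 3 with 2 groups, and their median ran from -0.93 to 0.98. All genes numbered 1027 to 2634 over libraries left out and 726 with at least 10 counts, and the related lists 15 to 26 over libraries left out, 8 with at least 10 counts, 22 by DESeq2 and 7 with 2 groups. Between DPI and ND, members numbered 2 to 15 over libraries left out, highest without ND 2, and 0 of 12 with at least 10 counts, where 0 had an unadjusted p under 0.05. Their median ran from 0.059 to 2.40, all genes numbered 830 to 2626 and 527 with at least 10 counts, and the related lists 9 to 30. The cause of these changes was not tested where none is named.

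Scaling by library size alone moved the median of all genes to -0.26 (Veh against ND), 0.12 (DPI against Veh) and -0.17 (DPI against ND), and the calls from 801 higher and 528 lower to 539 and 933, from 171 and 153 to 196 and 101, and from 711 and 347 to 546 and 624. The medians over members were then -0.61, 0.71 and 0.11.

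Same-numbered libraries of different groups had correlations of -0.029 to 0.099 between their deviations, and share only a number. With the replicate block, between Veh and ND 3 members passed, the members' median was 0.15 and 9 related genes passed, and between DPI and Veh 5 related genes passed. Ccnb1, Kif11 and, outside the members, Pbk then missed the threshold for DPI against Veh, Kif11, Kif20a, Cenpe and Tpx2 for Veh against ND, and Cenpe for DPI against ND. The block also gave 0.046 for Csf1r (Veh against ND) and -0.25 for Cdkn1a (DPI against ND), both of the other sign. Leaving out libraries turned the sign of Csf1r in Veh against ND (-0.43 to 0.51) and in DPI against ND (-0.61 to 0.34), of Ccnd1 (-0.97 to 0.61) and Myc (-0.44 to 0.37) in DPI against Veh, and of Cdkn1a in DPI against ND (-0.10 to 0.96), none of which had passed there. Among called members, Nusap1 missed the threshold for Veh against ND in the fit of 2 groups, and Tpx2 there and without a filter, while Kif11 and Kif20a were not tested in that fit of 2 groups. Adjusted p of Rrm2 for DPI against Veh ran from 0.461 to 1 over its alternatives, and that of Nusap1 for DPI against ND from 0.0179 to 0.516. At 3534325 to 15585775 counts per library, the members' 0 to 743 counts leave many of their log2 fold changes with SEs above 1.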

Other observations

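Of 68 values checked for a single library far from the other 3 of the DPI group, 0 were past Dixon's limit for 4 libraries, against about 1 in 20 by chance. These were the levels of the members and named related genes, the members' sums and their number at 0 counts. Cell type markers were not checked. The groups of 2 and 3 libraries could not be checked this way.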
